A study of Mus musculus with 3 samples.

Results

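Macrophage lineage transcription factors are the DNA-binding proteins that set up and maintain the macrophage programme. 9 genes were chosen by name for this role: Spi1, Maf, Cebpa, Cebpb, Irf8, Irf5, Nr1h3, Spic and Klf4. No cut-off on the measured values was used, but earlier results of these data were known when the genes were chosen. A level was obtained for 8 of the 9, of 36835 genes with a level in all, and 7 were above 0 in at least 1 library. Irf8 was not analysed here. RNA had been sequenced from 3 sorted cell populations of BALB/C mice carrying intra-kidney tumors of Renca, a mouse renal carcinoma cell line. The labels name the line Renca only, while the study's text describes the injected cells as Renca Ch+L+, a derivative marked with Cherry and luciferase. The library labelled M1 stands for type-1 macrophages, gated on intermediate F4/80 and high CD11b, and the library labelled M2 for type-2 macrophages, gated on high F4/80 and intermediate CD11b. The library labelled CD4 stands for T lymphocytes gated on TCR beta and CD4. The labels name no drug, no engineered allele and no age for any of the 3 groups, and all of them came from tumor-bearing mice. Cells came from 30 pooled tumors and 4 spleens, so each library is 1 pool. The labels give day 16 after inoculation in one field and day 14 in another, and they name both spleen and tumor as the source of the CD4 cells.

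PU.1, encoded by Spi1, is an ETS family factor that myeloid progenitors need to become macrophages. It binds many macrophage enhancers together with the C/EBP factors, which are basic leucine zipper proteins, and with interferon regulatory factors such as IRF8. Other factors act later and shape specialised states: c-MAF in resident macrophages, LXR alpha (Nr1h3) in cholesterol export, SPI-C in iron-recycling macrophages of the spleen red pulp and KLF4 in monocytes and alternatively activated macrophages.

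Levels are in FPKM, a fragment count divided by transcript length and by sequencing depth, so genes of different length can be compared. There is 1 library per group, so no difference has a replicate check and no p-value is given. A gene was called higher or lower when the log2 ratio of FPKM + 1 was at least 1 in size, a 2-fold difference, and either of the compared libraries reached 1 FPKM. This scale understates the change of low genes. Intervals in parentheses are 95% counting intervals from estimated fragments, and they cover counting error only. Estimated depth was 59714100, 60968800 and 73008900 fragments in the libraries labelled M2, M1 and CD4, read from the spacing of the lowest FPKM values.

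The cell type markers went against 2 of the 3 labels. The 12 T cell markers summed to 1818 FPKM for M2, against 6.36 for M1 and 17.2 for CD4, where 11 of the 12 were under 1 FPKM. The 13 macrophage markers summed to 672, 8672 and 13643 FPKM in the same order. Each of the 13 was lowest in the library labelled M2, and none was at 0 there. The gate genes did the same. Cd4 was at 166.3, 0.870 and 15.2 FPKM, Emr1 (F4/80) at 9.16, 45.3 and 215.4, and Itgam (CD11b) at 14.7, 298.8 and 200.9. Ptprc (CD45), the marker of all leukocytes, was at 284.8, 192.9 and 124.9. Foxp3, the regulatory T cell factor, was at 24.9 FPKM in the library labelled M2 and listed at 0 in the other 2. Every direction given here is therefore between libraries as labelled, and no column was reassigned.

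All 7 factors above 0 had their highest level in the library labelled M1 or CD4, and none in that labelled M2. The share of all genes with their highest level in either of those libraries was not counted. The 7 factors summed to 69.0, 438.4 and 425.7 FPKM for the labels M2, M1 and CD4. The make-up of these sums differed. Spi1 with 31.7% and Irf5 with 28.2% led for M1, while Maf with 31.0% and Spi1 with 26.3% led for CD4. Cebpb with 31.8% and Maf with 20.5% led for M2. The order from highest to lowest was Cebpb, Maf, Cebpa, Irf5, Spi1, Nr1h3, Spic for M2, then Spi1, Irf5, Cebpb, Cebpa, Maf, Nr1h3, Spic for M1, and Maf, Spi1, Cebpb, Irf5, Cebpa, Nr1h3, Spic for CD4. With 1 library each there is no replicate spread to separate neighbours in these orders.

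**Figure D1:**
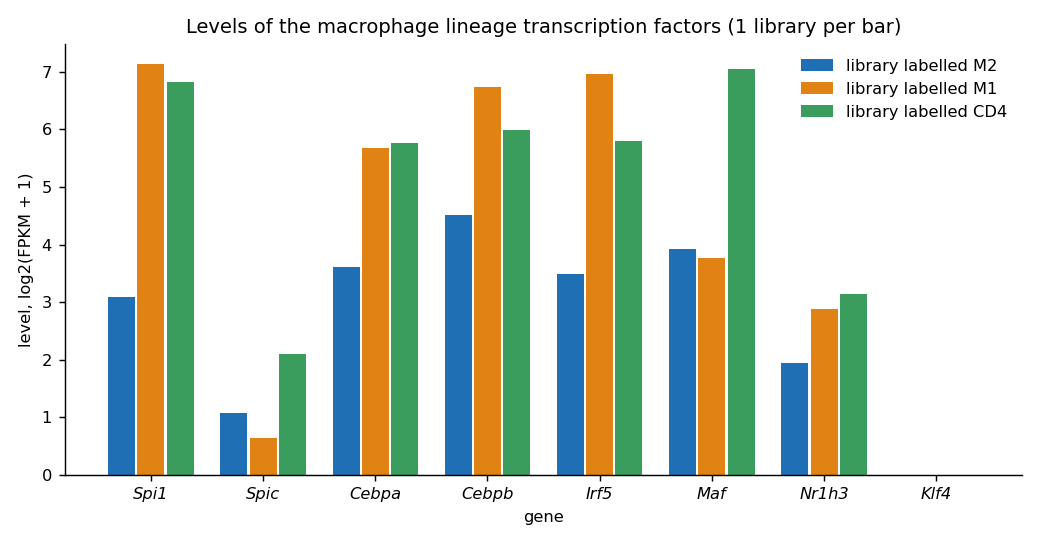
Level of each of the 8 measured factors as log2(FPKM + 1) (y axis) in the libraries labelled M2, M1 and CD4, 1 bar per library with no error bar. Spi1, Cebpa, Cebpb and Irf5 are lowest for M2, Maf stands out for CD4 alone at 131.9 FPKM, and Klf4 is listed at 0 in all 3.

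The first comparison set the library labelled M2 beside that labelled M1, the 2 macrophage labels. Spi1, Irf5, Cebpb and Cebpa were called lower in the library labelled M2, and none of the factors was called higher. That is 4 of the 7 that reached 1 FPKM in either library, where 14.5% of 12443 genes were called lower and 17.0% higher. The median log2 ratio was -2.07 for the 7 factors and 0.10 for all genes tested. Spic reached the minimum only through the library labelled M2. In bulk RNA, fewer cells of a type and less RNA per cell cannot be told apart. The T cell marker sum of 1818 FPKM and the macrophage marker sum of 672 moved with this comparison, and their part in the result was not tested.

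The second comparison set the library labelled CD4 beside that labelled M1. Maf and Spic were called higher in the library labelled CD4, Irf5 was called lower, and the other 4 passed neither way. Spic reached the minimum only through the library labelled CD4, where it is high. The background was 6.98% of 11587 genes called higher and 7.24% called lower. The median log2 ratio was 0.09 for the 7 factors and -0.01 for all genes tested. Spic lost its call with a pseudocount of 5, with a log2 ratio of 0.58, and Irf5 stayed within 4-fold.

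The third comparison set the library labelled CD4 beside that labelled M2. All 7 factors above 0 were called higher in the library labelled CD4 and none was called lower, where the background was 15.3% of 12438 genes called higher and 17.3% called lower. The median log2 ratio was 2.15 for the 7 factors and -0.12 for all genes tested. Both comparisons with the library labelled M2 share that library, so they are not separate evidence. Rescaling every library to the same FPKM total moved the median of all genes to 0.31 for M2 to M1 and to -0.30 for CD4 to M2. For M2 to M1 it changed the split of calls over all genes from 2110 higher and 1806 lower to 3508 and 1912. For CD4 to M2 the split went from 1903 and 2156 to 2065 and 3469. The genes tested also rose, from 12443 to 14216 and from 12438 to 14305, so these counts are out of different totals. The 4, 2, 1 and 7 calls of the factors were the same under this rescaling.

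**Figure D2:**
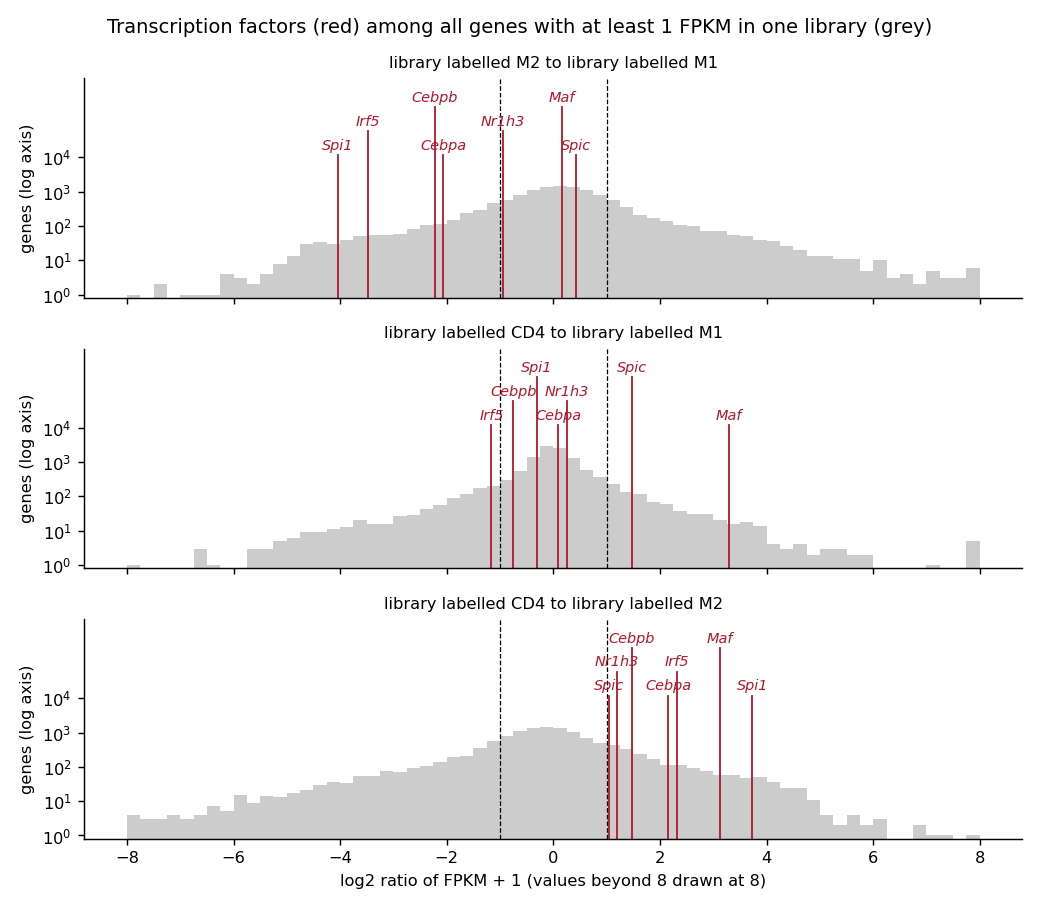
log2 ratio of FPKM + 1 (x axis) for each factor (red line, its height only keeps the names apart) over the histogram of all genes tested (grey, number of genes on a log axis) in the 3 comparisons, with dashed lines at the 2-fold rule and ratios beyond 8 in size drawn at 8. For CD4 to M2 every factor above 0 lies to the right of the 2-fold line, while for CD4 to M1 Maf at 3.29 and Spic at 1.47 lie beyond it and Irf5 lies at -1.16.

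Spi1 (annotated as Sfpi1, NCBIM37 chromosome 2, 90922547 to 90955913, plus strand) encodes PU.1. It was at 7.51 FPKM for M2, 138.8 for M1 and 112.0 for CD4. These levels stood at the 59.5th, 98.0th and 97.5th percentile of protein-coding genes above 0. The level for M1 was 18.5 times that for M2 (17.3 to 19.8) and that for CD4 was 14.9 times (13.9 to 16.0), the largest ratios to the library labelled M2 among the 7 factors. CD4 to M1 was 0.807. Of its 4 annotated transcripts only the 5-exon Sfpi1-001 was above 0. A repeated row of that transcript with a value for M2 alone held a further 4.19 FPKM, and adding it brought the log2 ratio of M2 to M1 from -4.04 to -3.46.

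Against its relatives in the same library, Spi1 lay below Ets1 for M2 and above it for M1 and CD4. Ets1, the ETS factor abundant in lymphocytes, was at 252.2 FPKM for M2, 4.14 for M1 and 5.12 for CD4, and the Spi1 to Ets1 ratio was 0.0298, 33.5 and 21.9. Spib, a close paralog used in B cells and plasmacytoid dendritic cells, was at 6.97, 0.241 and 0.153 FPKM. It nearly equalled Spi1 for M2, where the ratio of Spi1 to Spib was 1.08. Over all rows Spib was at 13.3 FPKM and Spi1 at 11.7 for M2, which turned their order. Among the 11 other ETS factors, 5 of 11 were called higher for M2 than for M1 and none lower, with Elf1 at 59.8, 19.9 and 14.0 FPKM and Elf4 at 37.7, 17.5 and 20.3. Over all rows Elf4 was at 37.7, 28.1 and 25.9 FPKM and lost its call. Ets2 was at 18.2, 27.4 and 31.1. None of 10 tested was called either way between CD4 and M1, and 3 of 11 were lower for CD4 than for M2. The ETS relatives had median log2 ratios of 0.62, 0.19 and -0.30 in the 3 comparisons, where Spi1 itself had -4.04, -0.31 and 3.73.

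The 3 protein-coding genes whose levels lay nearest to those of Spi1 over the 3 libraries, of 22144 compared, were Axl, Csf2ra and Clec4a2. Likeness was the Euclidean distance on log2(FPKM + 1), over 3 points only. Axl, a receptor tyrosine kinase used in clearing dying cells, was at 9.64, 147.3 and 114.5 FPKM and lay 0.335 away. Csf2ra, the alpha chain of the GM-CSF receptor, was at 7.17, 170.0 and 96.3 and lay 0.367 away. Clec4a2, a C-type lectin, was at 6.83, 180.4 and 126.8, at a distance of 0.433.

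9 genes listed as PU.1 targets were lowest for M2, as Spi1 was. All 9 of 9 were called lower for M2 than for M1, 9 of 9 were higher for CD4 than for M2, and 1 was higher for CD4 than for M1. Their median log2 ratios were -3.63, 3.68 and 0.05. Lyz2, the macrophage lysozyme, was at 330.2, 5975 and 6687 FPKM in the libraries labelled M2, M1 and CD4. Csf1r, the receptor for the macrophage growth factor M-CSF, was at 15.3, 278.8 and 519.3 FPKM. 5 of the 9 genes also stand in the macrophage marker list. Btk, a kinase of B cell and myeloid receptors, was at 5.35, 40.6 and 38.9 FPKM under the row rule and at 104937, 40.6 and 38.9 over all rows, which turned its direction in both comparisons with M2.

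Cebpa and Cebpb encode C/EBP alpha, which myeloid progenitors need, and C/EBP beta, which is induced in inflamed and alternatively activated macrophages. Both genes have a single exon. Cebpa (chromosome 7, 35904312 to 35906945, plus strand) was at 11.2 FPKM for M2, 50.2 for M1 and 53.3 for CD4. Its level was 4.47 times as high for M1 as for M2 (4.25 to 4.71) and 4.75 times as high for CD4 (4.52 to 5.004). CD4 to M1 was 1.06, the smallest difference between those 2 libraries among the 7 factors.

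Cebpb (chromosome 2, 167514415 to 167515918, plus strand) was at 22.0 FPKM for M2, 106.2 for M1 and 62.6 for CD4. It was the highest of the factors in the library labelled M2. M1 was 4.84 times M2 (4.61 to 5.08) and 1.70 times CD4 (1.64 to 1.75), the last under the 2-fold rule. Tmem189 lies on the opposite strand and shares 312 of the 1504 exonic bases of Cebpb. It was at 31.0, 70.2 and 61.4 FPKM. Where reads keep no strand, those from the shared bases cannot be told apart, and the strand of the reads was not checked.

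Cebpb exceeded Cebpa in every library, by 1.96 times for M2, 2.12 times for M1 and 1.17 times for CD4. Of the 4 other C/EBP family genes, Cebpd, the acute-phase member, was lowest for M2 as Cebpa was, with 3.33, 23.7 and 34.2 FPKM. Cebpe, a granulocyte factor, was at 0.290, 7.85 and 0.240 FPKM, high in the library labelled M1 alone. Ddit3 (CHOP, a stress factor) was at 26.2, 17.3 and 21.2 and Cebpg at 15.2, 19.8 and 22.8. 2 of 4 were called lower for M2 than for M1, 1 of 4 lower for CD4 than for M1, and 1 of 3 higher for CD4 than for M2.

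Of 4 genes listed as C/EBP targets, Arg1 and Ptgs2 were called lower for CD4 than for M1 and none higher, with a median log2 ratio of -1.31. Arg1, the arginase of alternatively activated macrophages, was at 12.1, 320.9 and 88.5 FPKM. Ptgs2, which encodes cyclooxygenase 2, was at 2.30, 6.68 and 0.71, and Csf3r, the G-CSF receptor, at 8.40, 19.7 and 25.3. For M2 against M1, 3 of 4 were called lower. Over all rows Csf3r was at 12.4, 19.7 and 57.6 FPKM, which ended its call for M2 against M1 and brought one for CD4 against M1.

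IRF5 drives inflammatory cytokine genes downstream of Toll-like receptors. Irf5 (chromosome 6, 29476625 to 29491869, plus strand) was at 10.2 FPKM for M2, 123.7 for M1 and 54.8 for CD4. It was the factor called lower for CD4 than for M1, with a level 2.26 times as high for M1 (2.20 to 2.32). M1 was 12.1 times M2 (11.5 to 12.8), and CD4 was 5.36 times M2 (5.06 to 5.69). Tnpo3 on the opposite strand shares 411 of the 2903 annotated exonic bases of Irf5, outside its main transcript Irf5-001, and was at 26.8, 23.8 and 22.0 FPKM.

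The added Irf5 for M1 was in part a second transcript. Irf5-001 was at 10.2, 92.2 and 54.8 FPKM, while Irf5-003 was at 31.5 FPKM for M1, or 25.5% of the gene, and listed at 0 for M2 and CD4. Both carry the same coding sequence of 1494 bases and share 2039 bases, with 150 bases only in Irf5-001 and 202 only in Irf5-003. The split between them rests on these few bases. The other 5 transcripts were listed at 0.

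The 7 other interferon regulatory factors differed among themselves. Irf4, a factor of activated lymphocytes and alternatively activated macrophages, was at 2.97, 17.3 and 2.07 FPKM. Over all rows Irf4 was at 10.3, 17.3 and 2.72, which ended its call between M2 and M1 and brought one for CD4 below M2. Irf7, the interferon-amplifying member, was at 33.6, 56.4 and 61.5, so Irf5 exceeded Irf7 in the library labelled M1 alone, with ratios of 0.303, 2.19 and 0.891. Irf1, an interferon gamma response factor, was highest for M2 with 77.9, 22.4 and 27.4. Irf3 was at 46.6, 27.0 and 29.0 and Irf2 at 35.0, 42.5 and 26.8. 1 of 6 tested was called higher and 1 lower for M2 than for M1, and for CD4 1 of 6 was called lower than for M1 (Irf4) and 1 of 6 lower than for M2 (Irf1).

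The genes listed as IRF5 and IRF8 targets were mostly low. Of these 6 cytokine and chemokine genes, 3 reached 1 FPKM in the comparison of M2 with M1, and 1 of the 3 was called lower for M2. Cxcl10, an interferon-induced chemokine, was at 5.91, 36.7 and 27.5 FPKM. Tnf was at 12.0, 18.6 and 11.9, and Il12b at 0.10, 0.94 and 0.21.

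c-MAF maintains resident macrophages and IL-10 production, and it is also used in helper T cells. Maf (chromosome 8, 118206842 to 118231694, minus strand) was at 14.2 FPKM for M2, 12.6 for M1 and 131.9 for CD4. It was the highest factor of all in the library labelled CD4, and 4 factors lay above it in that labelled M1. CD4 was 10.5 times M1 (10.1 to 10.8) and 9.31 times M2 (9.03 to 9.60). M2 and M1 differed by 1.12 times (1.08 to 1.17), which made Maf and Spic the only members above 0 that were not lower for M2 than for M1.

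Both Maf transcripts were highest for CD4. The 3-exon Maf-001 was at 4.76, 5.86 and 33.4 FPKM, and the single-exon Maf-002 was at 9.40, 6.75 and 98.5. Maf-002 made up 66.4%, 53.5% and 74.7% of the gene. They share 1342 bases, 41.6% of Maf-001 and 21.1% of Maf-002, and their coding sequences differ, with 1143 and 1113 bases. The antisense gene Gm15655 shares 440 exonic bases with Maf and was listed at 0 in all 3 libraries.

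Bach1, a repressor of heme oxygenase, was at 6.55, 24.3 and 22.6 FPKM, and the small MAF partners Mafg and Mafk were at 9.53, 14.5 and 13.2 and at 13.5, 9.40 and 8.85. Of the 6 MAF, small MAF and BACH genes in the list, 1 was called higher and 2 lower for M2 than for M1, none of 5 was called between CD4 and M1, and 2 were higher and 1 lower for CD4 than for M2.

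5 genes listed as c-MAF targets were called higher for CD4 than for M1 in 4 of 4 tested, with a median log2 ratio of 1.96. C1qa, C1qb and C1qc encode the chains of complement C1q. They were at 64.9, 55.9 and 42.5 FPKM for M2, at 440.4, 363 and 284.5 for M1, and at 1690, 1481 and 1127 for CD4. Over all rows C1qb was at 6644 FPKM for CD4. Mrc1, the mannose receptor, was at 19.5, 214.7 and 648.6. 4 of the 5 were lower for M2 than for M1, unlike Maf itself, and these 4 also stand in the macrophage marker list.

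LXR alpha senses oxysterols and switches on cholesterol export. Nr1h3 (chromosome 2, 91024218 to 91042991, minus strand) was low throughout, at 2.84 FPKM for M2, 6.38 for M1 and 7.77 for CD4, the 42.2nd, 56.2nd and 60.5th percentile. CD4 was 2.74 times M2 (2.41 to 3.12) and 1.22 times M1. M1 was 2.25 times M2 (1.96 to 2.58), with a log2 ratio of FPKM + 1 of -0.94 for M2 to M1, just under the rule. With a pseudocount of 0.1 that ratio was -1.14 and was called. With a pseudocount of 5 the call for CD4 over M2 was lost, with a log2 ratio of 0.70.

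4 of the 8 Nr1h3 transcripts were above 0. Nr1h3-001 was at 1.80, 3.66 and 4.30 FPKM, Nr1h3-002 at 1.04, 1.19 and 1.499 and Nr1h3-007 at 0, 1.52 and 1.17. These 3 carry the same coding sequence of 1338 bases. Nr1h3-004, which keeps an intron, was at 0.801 FPKM for CD4 and listed at 0 elsewhere.

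Nr1h2, the ubiquitous LXR beta, was at 26.9, 27.9 and 25.4 FPKM and exceeded Nr1h3 in every library, with Nr1h3 to Nr1h2 ratios of 0.106, 0.229 and 0.306. The shared partner Rxra was at 10.5, 23.6 and 16.6. Rara, a retinoic acid receptor, was at 15.8, 31.1 and 10.02, and Nr4a1, an immediate early nuclear receptor, at 17.6, 11.3 and 4.402. Over all rows Nr4a1 was at 26.02, 145.2 and 5.66 FPKM, which turned its direction between M2 and M1, and Rxra was at 10.5, 23.6 and 24.2, which brought a call for CD4 over M2. Of the 10 nuclear receptors other than Nr1h3, none was called higher and 3 lower for M2 than for M1, 1 higher and 3 lower for CD4 than for M1, and 1 each way for CD4 against M2.

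10 genes listed as LXR targets went different ways. Apoe, a lipid carrier, was at 197.3 FPKM for M2, 686.9 for M1 and 5211 for CD4. Abca1, the cholesterol exporter, was at 4.86, 14.1 and 60.8 (7.50 for M2 over all rows, which ended its call between M2 and M1), and Pltp, a phospholipid transfer protein, at 64.4, 110 and 188. Lpcat3 was at 24.5, 27.9 and 31.0. For CD4 against M1, 3 of 10 were called higher and 1 lower, with a median log2 ratio of 0.43. The lower one was Lpl, lipoprotein lipase, at 0.898, 23.6 and 3.73 FPKM. For M2 against M1, 1 was called higher and 4 lower.

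SPI-C is an ETS factor of red pulp macrophages. Spic (chromosome 10, 88137517 to 88147760, minus strand) was the lowest factor above 0, at 1.09 FPKM for M2, 0.554 for M1 and 3.31 for CD4. These values rest on an estimated 103 fragments (84.1 to 125), 52 (38.8 to 68.2) and 425 (386 to 467). CD4 was 5.97 times M1 (4.47 to 8.12) and 3.03 times M2 (2.43 to 3.79). The log2 ratio of CD4 to M2 was 1.04, just past the rule, and 0.45 with a pseudocount of 5. In the same libraries Spi1 was 6.88, 250.6 and 33.9 times Spic.

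The transcripts of Spic were not the same in each library. Spic-001, with a coding sequence of 729 bases, was at 0.615, 0.238 and 3.31 FPKM. Spic-002, annotated as a target of nonsense-mediated decay, was at 0.478, 0.316 and 0. Repeated rows of Spic-002 outside the rule held a further 2.29 FPKM for CD4, so the 0 depends on which row is read. Summed over all rows, Spic was at 1.398, 0.663 and 5.59 FPKM.

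Genes listed with SPI-C and red pulp macrophages were higher for CD4 than for M2 in 6 of 6. For CD4 against M1, 4 of 6 were called higher and none lower. Vcam1, an adhesion molecule, was at 7.13, 3.42 and 28.8 FPKM, and Cd163, the hemoglobin scavenger receptor, at 0.341, 3.34 and 20.3. Hmox1, which encodes heme oxygenase 1, was at 38.7, 239.1 and 200.7. Siglec1 (CD169) was at 2.40 and 52.8 FPKM for M2 and CD4 and listed at 0 for M1. Over all rows it was at 3.12, 10.8 and 125.6, which turned its direction between M2 and M1. For M2 against M1, 2 of the 6 were called higher, Siglec1 among them, and 3 lower.

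KLF4 takes part in monocyte differentiation and in alternative activation. Klf4 (chromosome 4, 55540013 to 55545347, minus strand) was listed at 0 in all 3 libraries, and no fold change is given. At the estimated depth 3 fragments would amount to 0.0165, 0.0162 and 0.0135 FPKM. The table holds 8 rows for Klf4, and the rule left out 7. The 4 that gave a value for CD4 alone held 10.6, 2.40, 4.55 and 0 FPKM for the transcript Klf4-201, so that the sum over all rows was 0, 0 and 17.5. Whether Klf4 was detected for CD4 therefore depends on the row used. Of 22144 protein-coding genes, 605, 504 and 511 were likewise at 0 under the rule and at 1 FPKM or more over all rows.

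The other Kruppel-like factors were measured under the rule in every library. Klf6, an injury-response factor, was at 42.0, 75.5 and 63.9 FPKM. Klf2 and Klf3 were highest for M2, with 22.5, 7.39 and 17.9 and with 40.4, 14.3 and 20.2. Over all rows Klf3 was at 56.0, 33.9 and 43.2 FPKM and lost its call between M2 and M1. Klf10, a TGF beta response factor, was at 5.92, 18.0 and 9.61. 2 of 8 were called higher and 1 lower for M2 than for M1, 1 of 8 higher for CD4 than for M1 and none between CD4 and M2. The 4 genes listed as KLF4 targets were all called lower for M2 than for M1. Between CD4 and M1 they split, with Mrc1 called higher and 3 called lower, among them Retnla at 0.209, 34.2 and 4.78 FPKM and Chi3l3 at 2.51, 9.04 and 0.165, both products of alternatively activated macrophages. Arg1 and Mrc1 stand in other lists here too.

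**Figure D3:**
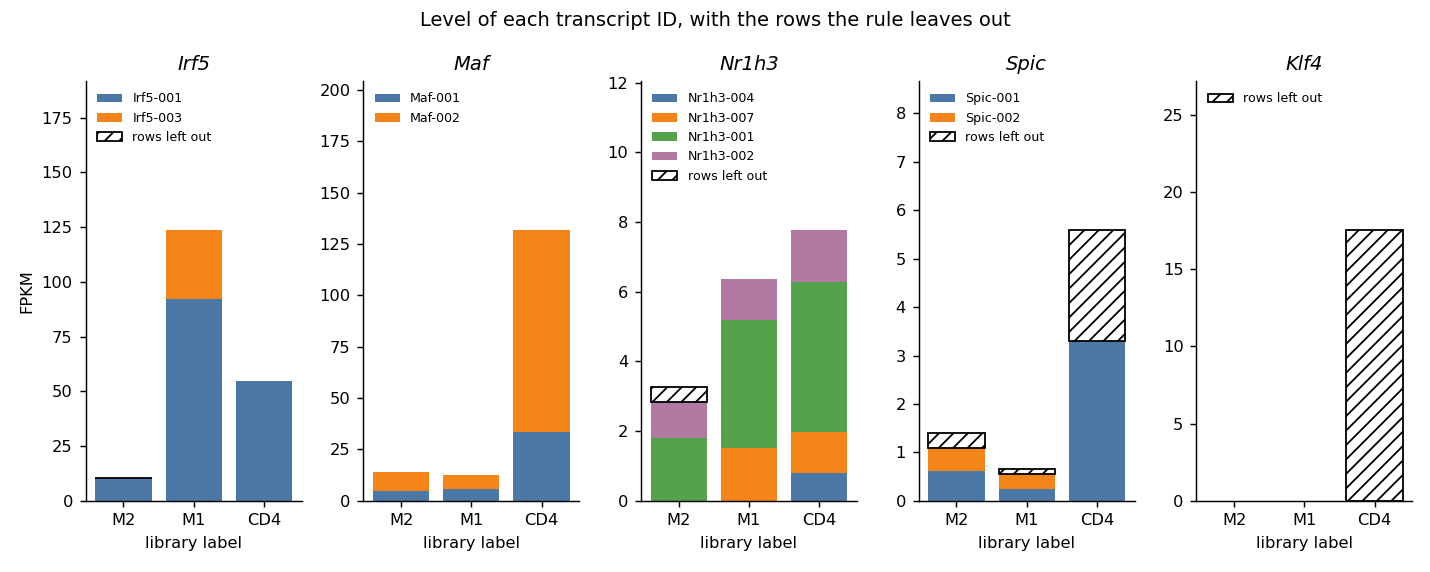
FPKM of each transcript above 0 (stacked colours) of Irf5, Maf, Nr1h3, Spic and Klf4 in the 3 libraries as labelled, with hatched parts for repeated rows that the rule left out. Irf5-003 appears for M1 alone at 31.5 FPKM, Maf-002 makes up most of Maf for CD4, and all 17.5 FPKM of Klf4 stand in left-out rows.

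**Figure D4:**
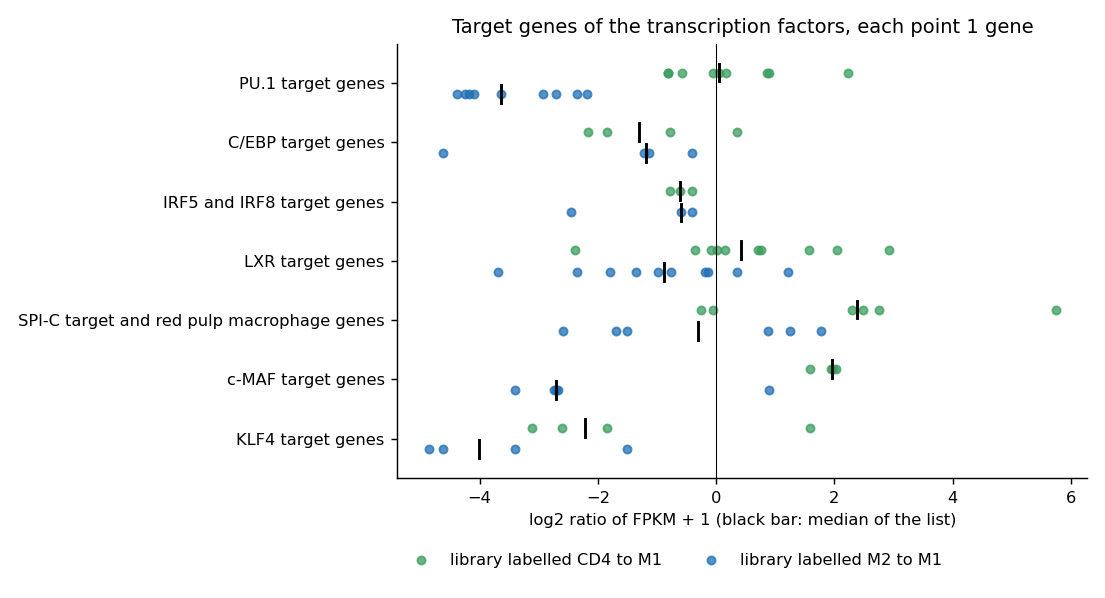
log2 ratio of FPKM + 1 of each gene in 7 target lists, for CD4 to M1 (green) and M2 to M1 (blue), leaving out genes that reached 1 FPKM in neither; black bars are list medians. PU.1 targets centre at -3.63 for M2 to M1 and at 0.05 for CD4 to M1, c-MAF targets centre at 1.96 for CD4 to M1, and the green point farthest right is Siglec1, which was listed at 0 for M1.

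A wider set of 66 transcription factors held the relatives of the lineage factors and 20 further factors used in myeloid cells. In it, 11 of 63 tested were called higher and 16 lower for M2 than for M1. That is 17.5% and 25.4%, against 17.0% and 14.5% of all genes. For CD4 against M1, 2 of 61 were higher and 10 lower, or 3.28% and 16.4%, against 6.98% and 7.24% of all genes. For CD4 against M2, 8 of 62 were higher and 10 lower, where 7 of 7 lineage factors were higher. That is 12.9% and 16.1% of the wider set, against 15.3% and 17.3% of all genes. Among the 20 further factors, Id2, an inhibitor of helix-loop-helix proteins, was at 54.9, 167.1 and 34.7 FPKM, Hif1a, the hypoxia factor, at 49.9, 74.1 and 36.7, and Bhlhe40 at 27.0, 69.0 and 18.9. 2 of 18 tested were higher and 7 lower for M2 than for M1, 5 of 18 lower for CD4 than for M1, and 4 each way for CD4 against M2.

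The T lineage factors ran opposite to Spi1. 10 of 12 were called higher for M2 than for M1 and 11 of 12 lower for CD4 than for M2. Tcf7, Lef1 and Satb1, which shape T cell development, were at 249.9, 94.997 and 69.3 FPKM for M2. They were at 0.34, 0.09 and 0.55 for M1 and at 0.09, 0.06 and 1.06 for CD4. Zbtb7b, the CD4 lineage factor ThPOK, was at 32.1, 22.3 and 6.88. Over all rows it was at 40.1, 35.5 and 29.3 FPKM and lost its calls for CD4 below M1 and below M2. The Spi1 level of 7.51 FPKM in the library labelled M2 stood beside these values and beside B cell markers that summed to 62.9 FPKM there, 1.59 for M1 and 11.8 for CD4. The part of either in the level of Spi1 was not tested.

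Signs of other cells differed between the libraries as well. Over M2, M1 and CD4, dendritic cell markers summed to 144.9, 132.8 and 32.7 FPKM, neutrophil markers to 231.8, 63.3 and 11.8 and monocyte markers to 299.8, 734.9 and 194.3. Kidney and tumor epithelium markers summed to 203.3, 121.1 and 95.7, fibroblast markers to 10.4, 7.77 and 31.9, endothelial markers to 36.7, 3.78 and 4.36 and erythroid markers to 300.2, 43.8 and 48.2. Single genes carried some of these sums. Ccr7 held 121.9 FPKM of the dendritic cell sum for M2, Itgax held 123.8 of it for M1, and Pecam1 held 35.0 of the endothelial sum for M2. The neutrophil sums depend on the row rule. Elane, in that list, was at 0.351, 0.0152 and 0.0143 FPKM under the rule and at 723, 366 and 336 over all rows. Mmp8, also in that list, was highest for M1, at 1.08, 15.9 and 1.38. The part of all these other cells in the levels of the lineage factors was not tested. Between 81.2% and 88.0% of the FPKM total of a library stood in rows above 100000 FPKM, and between 14488 and 14999 protein-coding genes were above 0.

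Promoters were searched for the motifs of the factors themselves, since several of them are known to act on each other's genes. Windows were the 250 bases before the RefSeq start on GRCm38.p6, another build than that of the gene positions above. 6 of the measured factors had an entry, in 7 windows. The motifs, on both strands, were GAGGAAGT for PU.1, TTGCNNAA for C/EBP, an interferon regulatory factor repeat, TGCTGA for a MAF recognition core, GGGTGTGG for KLF factors and TATAAA for a TATA box. They occurred in 2.44%, 9.56%, 2.98%, 16.1%, 3.20% and 12.4% of 32851 windows. Over the 7 windows there were 2 matches, a TATA box 30 bases before the Cebpa start and a MAF recognition core 198 bases before the Spic start. These 2 promoters are shown because they hold the matches, 5′ to 3′ on the strand of the gene with the match in capitals. The Cebpa window is chr7:35119043-35119292, plus strand, with 66.4% G and C, and the Spic window is chr10:88683024-88683273, minus strand, with 44.8%, where the median window has 52.4%.
Cebpa: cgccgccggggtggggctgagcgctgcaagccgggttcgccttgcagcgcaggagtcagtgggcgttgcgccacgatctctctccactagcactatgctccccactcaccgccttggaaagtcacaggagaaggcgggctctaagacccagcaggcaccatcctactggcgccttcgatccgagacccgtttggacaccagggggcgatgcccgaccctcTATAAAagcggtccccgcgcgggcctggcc
Spic: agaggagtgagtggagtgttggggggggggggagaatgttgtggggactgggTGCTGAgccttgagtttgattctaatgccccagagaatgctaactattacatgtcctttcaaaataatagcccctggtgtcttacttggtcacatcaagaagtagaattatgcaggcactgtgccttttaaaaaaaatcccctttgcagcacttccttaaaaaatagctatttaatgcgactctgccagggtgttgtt
A match of letters is a description and not a binding site.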

How the data were processed

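RNA sequencing (Illumina TruSeq, total RNA, paired reads of 51 bases) was available for 3 libraries, 1 per group, grouped by their labels. The authors aligned the reads to mm9 with TopHat 1.4.1 and Bowtie 0.12.8, and deposited transcript levels in FPKM from Cufflinks 2.1.0 with Ensembl release 67. The submitters' processing notes also name Cuffdiff. How the 3 libraries were joined into 1 table is not given in the sources used here.

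Identifiers were matched to the NCBIM37 GENCODE annotation (Ensembl release 65), which held 90316 of 92519. Of 135070 rows, 10182 without an Ensembl identifier were left out. For each identifier the first row with values in all 3 columns was used, and rows were summed per gene. A pseudocount of 1 was added before log2 ratios. Fragments were estimated from the lowest FPKM times length over transcripts of 2500 to 8000 bases, and their 95% intervals are exact. The gene lists are background knowledge; each named gene is a listed factor, one of up to 4 genes with the highest level of its list, a gate or cell subset gene of the study, or one of the 3 nearest to Spi1. Spib, Irf4, Lpl, Btk, Elane, Ccr7, Itgax, Pecam1 and the genes overlapping a factor were named after their values were seen. Some listed genes are counted in their lists but their levels are not reported here. The factors and lists were chosen with earlier results of these data known. The 10 alternatives were the sum over all rows, the highest row of each identifier, protein-coding transcripts only, pseudocounts of 0.1 and 5, no minimum or 10 FPKM, 2 rescalings and a 4-fold rule. The scripts were checked on simulated data in Python 3.11.15 with numpy 2.4.6, pandas 2.3.3 and scipy 1.17.1.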

Additional observations from a re-analysis of the deposited data

Results flagged for a closer look

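The rows that the row rule left out held values above the level of 3 fragments for 6 of the measured factors, and these rows are outside the calls of the report, which uses them only where it says that all rows were summed. For Klf4 they summed to 17.5 FPKM in the library labelled CD4, over 3 rows above 0, where 3 fragments amount to 0.0135 FPKM. For Spic they held 2.29 FPKM in the library labelled CD4 over 2 rows, 0.306 in that labelled M2 and 0.109 in that labelled M1. The left-out row of Spi1 held 4.19 FPKM in the library labelled M2. In the same library single left-out rows held 0.441 FPKM for Nr1h3, 0.403 for Irf5 and 0.266 for Cebpa. No such value was found for Maf or Cebpb. Why the table repeats identifiers was not tested.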

How the results depend on the processing

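No paired analysis was possible because each group is 1 library and the result comes from no test. Of 60 recomputed counts of called factors, 55 stayed within 1.5 times the reported count. Of 168 recomputed log2 ratios, 120 stayed within their counting interval or did not move, 48 moved by more and none reversed. Klf4, at 0 under the row rule, has no such interval, could not reverse and could move only with all rows or the highest row. Cebpb, with 1 row, and Maf, whose left-out row held 0, could not move under the choice of row. The 120 therefore include ratios that were fixed in advance. The number higher for CD4 than for M1 was 2 as reported and 1 with a pseudocount of 5, with a minimum of 10 FPKM and with the 4-fold rule. Under the 4-fold rule the number lower for CD4 than for M1 was 0 and the number higher for CD4 than for M2 was 4 of 7. Summed over all rows, or with the highest row, Klf4 joined and these numbers of higher factors were 3 and 8. A pseudocount of 0.1 added Nr1h3 to the factors lower for M2 than for M1, making 5.

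Over all genes the higher and lower calls for M2 to M1 were 2110 and 1806 as reported. A pseudocount of 5 gave 968 and 1033, while the counts were 1020 and 1157 with a minimum of 10 FPKM, 799 and 688 under the 4-fold rule and 3508 and 1912 when rescaled to a common total. For CD4 to M1 the reported 809 and 839 became 356 and 400, 381 and 416, and 259 and 270 under the first 3 of these. For CD4 to M2 the reported 1903 and 2156 became 1072 and 1015, 1198 and 1070, and 721 and 815, and rescaling gave 2065 and 3469. The number of genes tested changed as well. It was 14216 for M2 to M1 and 14305 for CD4 to M2 when rescaled. With a minimum of 10 FPKM it was 6715 for M2 to M1, 6031 for CD4 to M1 and 6732 for CD4 to M2. The cause of the changed calls was not tested. Depth is an estimate, and with transcripts of 1500 to 4000 bases it was 62249900, 61819900 and 73008900 fragments. Spic rests on the fewest fragments and is the least certain of the ratios.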
